A study of Mus musculus with 16 samples.

Results

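The genes described here encode the working parts of the lysosome: 18 acid hydrolases, 3 lumenal cofactors, 5 membrane proteins, 8 subunits of the proton-pumping V-ATPase and 3 of the MiT/TFE family of transcription factors, Tfeb, Tfe3 and Mitf. They were chosen by name, as a list of 37 gene symbols, and matched to the Ensembl identifiers of the deposited tables through a mouse gene annotation. Earlier results of these data were known when the list was chosen, so the shares of members called below are not independent of the data. Each table held 54532 identifiers, of which 11654 passed a filter of a level of 1 or more in 4 or more of the 16 libraries. Levels are in FPKM, a read count scaled to transcript length and to a denominator set for each library. All 37 genes were found and all 37 passed that filter.

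RNA was sequenced from bone marrow-derived macrophages, which were grown from the femur and tibia marrow of FVB/N mice in medium containing L929 cell-conditioned medium. The mice were wild type (WT in the plots) or FOXO3-/- (knockout or KO in the plots), which lacks the forkhead transcription factor FOXO3, and the cultures received either the vehicle DMSO or the synthetic glucocorticoid dexamethasone at 100 nM for 24 h before RNA isolation. The 4 groups were therefore wild type with DMSO, wild type with 100 nM dexamethasone, FOXO3-/- with DMSO and FOXO3-/- with 100 nM dexamethasone, with 4 libraries each. Steps between single-read values gave 16886746 to 20584578 reads on genes per library. The labels do not say whether the libraries of a group came from separate mice or cultures, so the p-values below measure the spread between libraries, which may be technical.

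Lysosomes digest material that macrophages engulf or deliver by autophagy. The V-ATPase uses ATP hydrolysed by its cytosolic V1 sector to drive protons through its membrane V0 sector, and the acid lumen this makes lets the hydrolases work. Many lysosomal genes carry CLEAR elements, short promoter sequences built on the E-box CACGTG and bound by TFEB, TFE3 and MITF.

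That E-box was searched for in the RefSeq promoter windows of the members, because it is the sequence through which these 3 factors are known to act. The windows ran from 250 bases before to 50 bases after a start site of the gene (GRCm38.p6), and 31 of the 37 members had a window. CACGTG reads the same on both strands. It occurred in 11 of these 31 members (35.5%), against 8.09% of all 27025 genes with a window and 12.3% of the 8598 of them that also passed the expression filter. The full CLEAR palindrome, a longer sequence that contains CACGTG, was in none of the 31 members and in 0.37% of the genes. A match describes letters in a window and does not show that a factor binds there. The stretches below are printed 5′ to 3′ on the gene's own strand, with every CACGTG in capitals. Lamp1 had the most copies, 4 of them, and Gla had 2. Glb1, Naglu, Gaa and Atp6v1a show the single copy in 3 other hydrolase genes and in a pump gene.
Lamp1, chr8:13159088-13159160, plus strand: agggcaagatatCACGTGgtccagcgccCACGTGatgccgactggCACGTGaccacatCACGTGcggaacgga
Gla, chrX:134601182-134601244, minus strand: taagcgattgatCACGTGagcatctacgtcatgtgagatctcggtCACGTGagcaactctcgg
Glb1, chr9:114401018-114401047, plus strand: ctgcttctgagtCACGTGgcctacagaggc
Naglu, chr11:101070009-101070038, plus strand: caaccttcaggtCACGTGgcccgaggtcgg
Gaa, chr11:119267811-119267840, plus strand: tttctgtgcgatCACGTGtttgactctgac
Atp6v1a, chr16:44139373-44139402, minus strand: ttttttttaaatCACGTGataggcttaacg
Positions were counted from the start site that set each window, which for some genes, such as Atp6v1a, differs from the annotated gene boundary. The Lamp1 copies began at -61, -45, -28 and -15 and those of Gla at -227 and -194. Those of Glb1, Naglu, Gaa and Atp6v1a began at -48, -73, -140 and -131.

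Lysosomal transcripts were among the most abundant in these cells. The 37 genes together held 7.97% ± 0.534 (SD, n = 4) of the summed FPKM in wild-type vehicle libraries, 7.89% ± 0.323 in wild-type dexamethasone libraries, 7.85% ± 0.911 in FOXO3-/- vehicle libraries and 8.21% ± 0.39 in FOXO3-/- dexamethasone libraries. In FPKM they summed to means of 27520 with vehicle and 24890 with dexamethasone in wild type, and 27970 and 25890 in FOXO3-/-. The total FPKM of a library was on average lower with dexamethasone, so an even share does not mean even levels. Psap, whose product is cut into the saposins that present sphingolipids to their hydrolases, had a mean of 8886 FPKM over the 16 libraries, the 4th highest of the genes tested. The aspartic protease Ctsd and the cysteine proteases Ctsb and Ctss ranked 7th, 8th and 11th, at 4289, 3649.7 and 2253 FPKM. At the other end were Mitf at 9.93 FPKM and Atp6v0c, the proteolipid of the V0 ring, at 6.86 FPKM. The Atp6v0c value is uncertain. A processed pseudogene on chromosome 6, Atp6v0c-ps2, is 99.78% identical to it over 465 bases and was listed at 411 to 974 FPKM, and reads shared by the pair cannot be assigned.

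**Figure D1:**
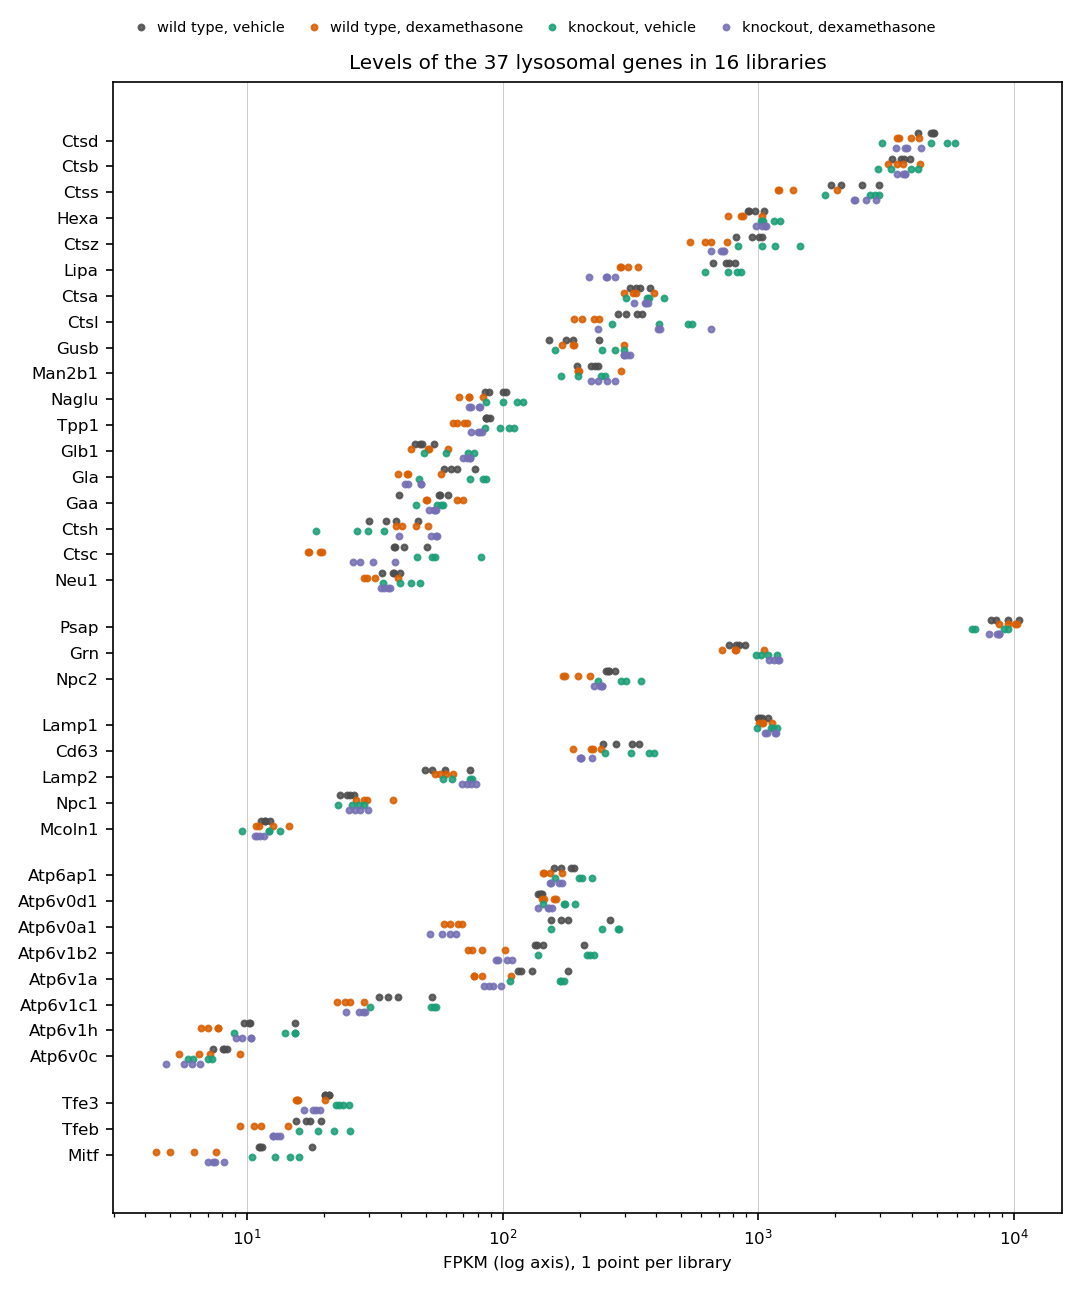
Level of each of the 37 lysosomal genes in each of the 16 libraries, in FPKM on a log axis, by class of gene and coloured by group. Psap lies at the top, between 6872 and 10484 FPKM, and Mitf and Atp6v0c lie lowest.

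3 libraries stood apart from their groups in Col1a1, a collagen gene of stromal cells. Wild-type vehicle library 3 had 6.77 FPKM of Col1a1 where the others of its group had 124 to 174, wild-type dexamethasone library 4 had 19.1 against 159 to 356, and FOXO3-/- vehicle library 4 had 95.8 against 0.395 to 4.76. Most lysosomal genes were at the top or bottom of their group in these 3 libraries. Wild-type dexamethasone library 4 was the highest of its group in 36 of the 37 genes, by a median of 0.30 on the log2 scale, and was the highest in 42.6% of all genes tested. FOXO3-/- vehicle library 4 was the lowest of its group in 34 of 37, with a median of -0.37, against 36% of all genes tested. Wild-type vehicle library 3 was the highest of its group in 23 of 37, with a median of 0.14, against 41.6% of all genes tested. Libraries not among these 3 were often at an end too. Library 2 was the lowest of wild-type vehicle in 25 of 37 (24.1% of all genes tested) and of wild-type dexamethasone in 19 (33.6%). In FOXO3-/-, vehicle library 2 was the highest in 22 (35.2%) and dexamethasone library 4 the lowest in 18 (24%).

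Summed over 10 stromal markers, of which none was at 0 throughout a group, the level ran from 30.4 to 556.8 FPKM in wild-type vehicle libraries, 69 to 1127 in wild-type dexamethasone libraries, 3.12 to 391.6 in FOXO3-/- vehicle libraries and 7.16 to 99 in FOXO3-/- dexamethasone libraries. The 10 macrophage markers, none at 0 throughout a group, summed to 13490 to 14420 FPKM in wild-type vehicle libraries, 10700 to 14030 in wild-type dexamethasone libraries (the highest being library 4), 14230 to 16490 in FOXO3-/- vehicle libraries and 14310 to 17160 in FOXO3-/- dexamethasone libraries. With dexamethasone 3 of the 10 rose and 6 fell in wild type and 4 rose and 5 fell in FOXO3-/-. That is 90% called in each genotype, beside 30.1% and 39.1% of all genes tested. The 8 neutrophil and progenitor markers summed to 2.87 to 9.10 FPKM with vehicle and 5.47 to 17.7 with dexamethasone in wild type, and to 1.34 to 8.65 and 13.4 to 17.2 in FOXO3-/-. The collagenase Mmp8 was the larger part of that sum with dexamethasone and rose in both genotypes, while Mpo and Elane, which define neutrophil precursors, were at or near 0; the part of such cells in the results was not tested. Markers of dendritic cells, lymphocytes and mast cells each summed to under 1 FPKM. The targeted gene did not separate the genotypes: Foxo3 had 24.7 ± 1.72 FPKM in wild type and 23.8 ± 0.635 in FOXO3-/- with vehicle (SD, n = 4; exact two-sided permutation p = 0.371), and 23.2 ± 1.07 and 24.5 ± 1.44 with dexamethasone (exact p = 0.171), where 0.0286 is the smallest p this design allows. A gene total does not show whether the transcript is intact, so the level neither bears out nor contradicts the labels. The genotype counts below are given with and without the 3 libraries, and the part of stromal RNA in them was not tested other than by those values and by a fit with a stromal score, the mean log2(FPKM + 1) of these 10 markers in a library, as covariate.

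**Figure D2:**
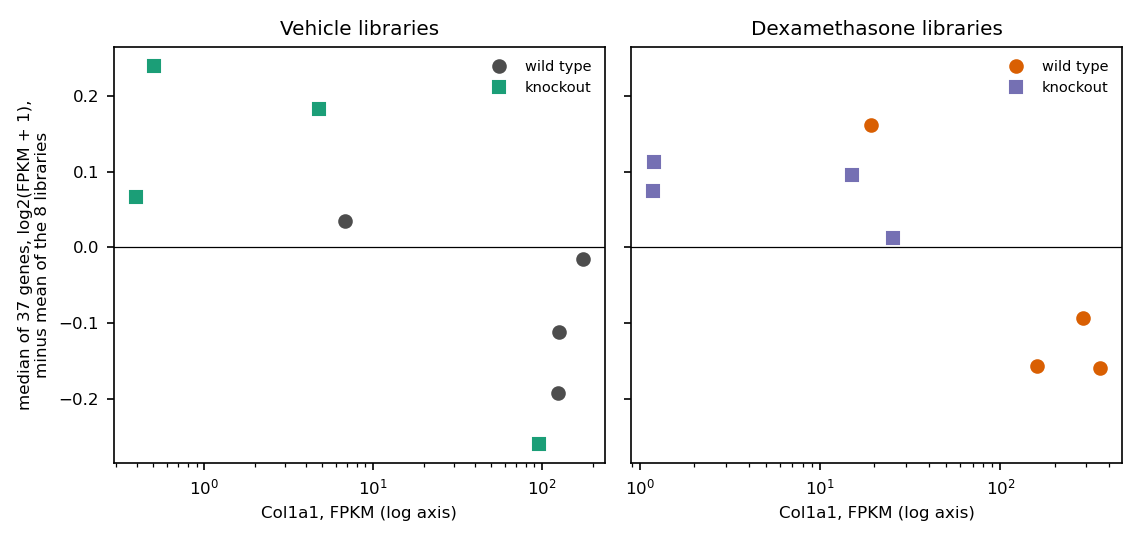
Median over the 37 genes of the log2 level relative to the mean of the 8 libraries with the same treatment (vertical axis), against Col1a1 in FPKM on a log axis, for vehicle (left) and dexamethasone (right). FOXO3-/- vehicle library 4 lies at -0.26 beside the wild-type libraries that are high in Col1a1, and wild-type dexamethasone library 4 lies at 0.16 beside the FOXO3-/- libraries.

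Dexamethasone lowered the transcripts of a large share of these genes. In wild-type macrophages 17 of 37 fell and 1 rose by limma's moderated test on log2(FPKM + 1) at a Benjamini-Hochberg adjusted p under 0.05, where 30.1% of all genes tested passed in either direction, 11.9% higher and 18.2% lower. In FOXO3-/- macrophages 16 fell and 1 rose, where 39.1% of all genes tested passed, 15% higher and 24.1% lower. The median difference over the 37 genes was -0.28 on the log2 scale in wild type and -0.22 in FOXO3-/-, beside -0.02 and -0.05 over all genes tested. 15 genes fell in both genotypes: the 3 transcription factors, the pump genes Atp6v0a1, Atp6v1a, Atp6v1b2 and Atp6v1c1, the hydrolases Ctsc, Ctsz, Gla, Lipa, Naglu and Tpp1, the sterol carrier Npc2 and the tetraspanin Cd63. The groups did not overlap in 18 of the 37 genes in wild type and 14 in FOXO3-/-, where 27.3% and 40.5% of all genes tested did not overlap. Since these are bulk RNA samples, fewer cells that express a gene and less of its RNA per cell cannot be told apart.

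Most of these falls were also found without the 3 libraries that stood apart in Col1a1. Then 21 of 37 fell in wild type and none rose (33.7% of all genes tested passed), with Ctsd, Hexa, Neu1 and Atp6ap1 added and Npc1 lost. In FOXO3-/- 21 fell and 1 rose (46% passed), with Ctsd, Neu1, Mcoln1, Atp6v0d1 and Atp6v1h added. Without these libraries Atp6v0a1 differed by -1.41 in wild type and -2.17 in FOXO3-/- on the log2 scale, Lipa by -1.29 and -1.70, Ctsc by -1.20 and -0.73, and Mitf by -0.99 and -0.87. With the stromal score as covariate, 17 fell and 1 rose in wild type (36.8% passed), and 19 fell and 2 rose in FOXO3-/- (46.5% passed). Differences are on the log2(FPKM + 1) scale, which understates the change of genes with few FPKM, while values given as n-fold are ratios of mean FPKM.

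**Figure D3:**
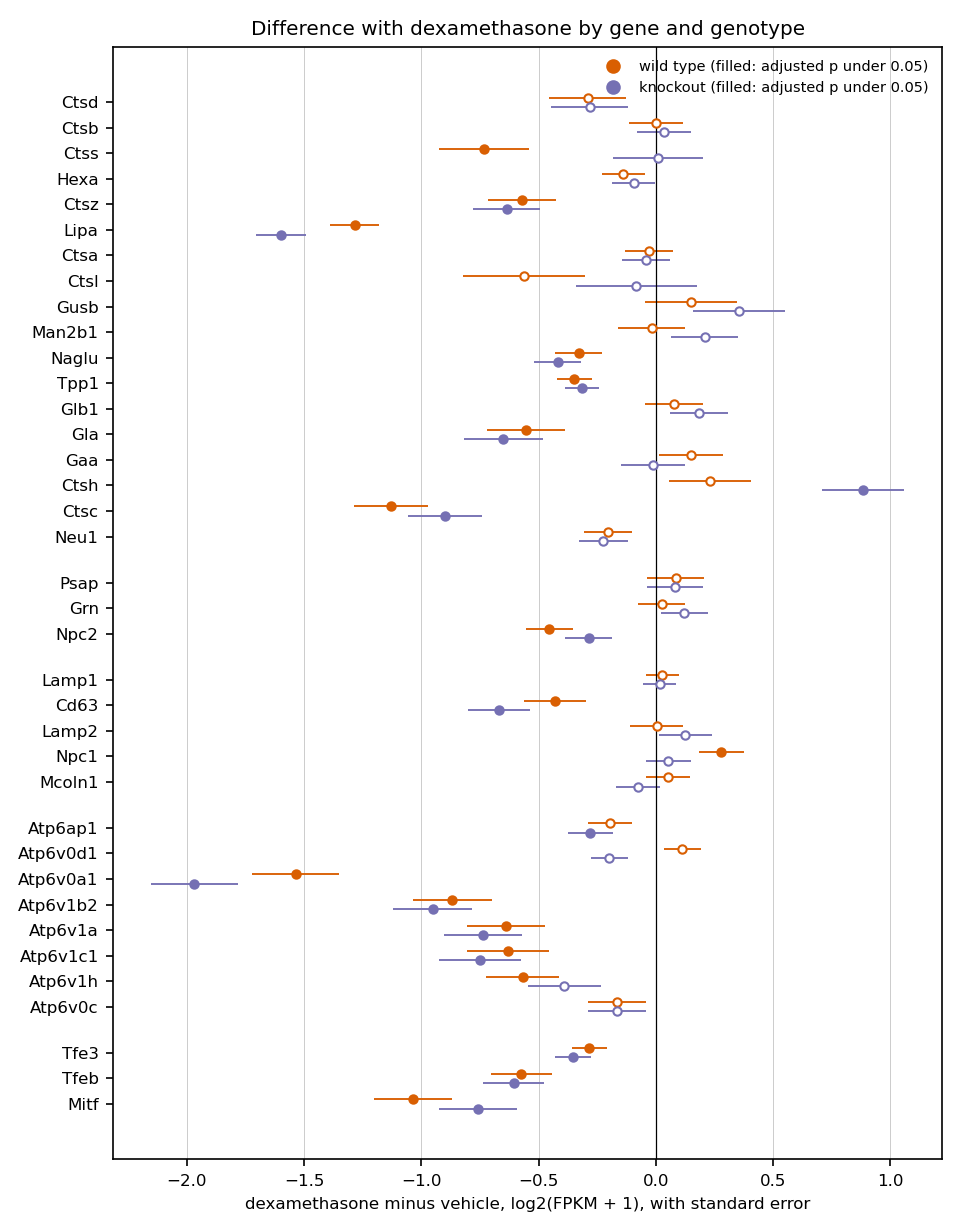
Difference between dexamethasone and vehicle for each gene on the log2(FPKM + 1) scale, with its standard error, in wild type and in FOXO3-/- (4 libraries a group), by class. Filled points have an adjusted p under 0.05 by limma. Atp6v0a1 and Lipa lie farthest to the negative side in both genotypes and Ctsh farthest to the positive side in FOXO3-/-.

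The 3 MiT/TFE factors among the members fell in both genotypes, with class medians of -0.57 in wild type and -0.61 in FOXO3-/-. Mitf, the master regulator of pigment cells that macrophages and osteoclasts also express, stood at 11.2, 11.3, 18 and 11.4 FPKM in the 4 wild-type vehicle libraries and at 5.01, 6.20, 4.41 and 7.53 with dexamethasone. In FOXO3-/- it was at 14.7, 12.8, 16 and 10.5 FPKM with vehicle and 7.46, 7.33, 8.09 and 7.05 with dexamethasone. Every dexamethasone library lay below every vehicle library of its genotype, and the highest vehicle value was that of wild-type library 3, which is low in Col1a1. The mean was 2.24-fold lower with dexamethasone in wild type and 1.8-fold lower in FOXO3-/-, differences of -1.03 ± 0.16 (SE) and -0.76 ± 0.16 on the log2 scale (limma adjusted p = 2.90e-04 and 0.00223).

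Tfeb, the factor best known for switching on lysosomal genes when nutrients run short, was at 17, 15.5, 19.5 and 17.6 FPKM in wild-type vehicle libraries and 10.6, 9.36, 11.4 and 14.5 with dexamethasone, and in FOXO3-/- at 21.9, 25.2, 18.9 and 16 with vehicle and 13.4, 13.1, 12.6 and 12.6 with dexamethasone. The groups did not overlap in either genotype. It fell by 0.57 ± 0.13 on the log2 scale in wild type and by 0.61 ± 0.13 in FOXO3-/- (limma adjusted p = 0.00402 and 0.00204). Tfe3, its close relative, had the smallest difference of the 3, with 20.6 ± 0.468 FPKM for vehicle and 16.8 ± 2.28 for dexamethasone (SD, n = 4) in wild type, a difference of -0.28 (limma adjusted p = 0.0115), and 23.5 ± 1.19 and 18.2 ± 1.13 in FOXO3-/-, a difference of -0.35 (limma adjusted p = 0.00207). The wild-type Tfe3 groups overlapped through dexamethasone library 4, at 20.2 FPKM where the others had 15.5, 15.7 and 15.9, and its call ended when only those 2 groups were fitted (limma adjusted p = 0.058). Tfec, the other gene of the family and not a member, was at 2.63 ± 0.375 FPKM with vehicle and 3.12 ± 0.877 with dexamethasone in wild type and did not pass there (0.16, limma adjusted p = 0.378). In FOXO3-/- Tfec was at 2.87 ± 0.379 FPKM with vehicle and 4.46 ± 0.319 with dexamethasone and rose (0.50, limma adjusted p = 0.00689).

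Among the V-ATPase genes 5 of 8 fell in each genotype, with class medians of -0.60 and -0.56. Those are 62.5% of the 8, where 18.2% and 24.1% of all genes tested fell. Atp6v0a1, which encodes the a1 form of the large V0 subunit through which protons pass (chr11:101009452-101063719, plus strand), had the largest difference of all 37 genes. It was at 181, 154, 263 and 169.7 FPKM in wild-type vehicle libraries and at 67.2, 58.8, 62.1 and 69.3 with dexamethasone, and in FOXO3-/- at 285, 282, 245 and 154 with vehicle and 51.8, 58.1, 65.9 and 62.3 with dexamethasone. The 8 dexamethasone libraries lay in a narrow band under 70 FPKM, while the vehicle libraries were spread widely above 150 FPKM. The mean was 2.99-fold lower with dexamethasone in wild type (-1.54 ± 0.19 on the log2 scale, limma adjusted p = 2.68e-05) and 4.06-fold lower in FOXO3-/- (-1.97 ± 0.19, limma adjusted p = 1.70e-06).

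The V1 sector genes had smaller differences. Atp6v1b2, the nucleotide-binding B subunit, was at 143, 136, 208 and 133 FPKM with vehicle and 76.2, 73.3, 83.3 and 102 with dexamethasone in wild type, and in FOXO3-/- at 219, 228, 213 and 137 with vehicle and 96.3, 104, 108 and 94 with dexamethasone. No dexamethasone library reached the vehicle libraries of its genotype, and the means were 1.85-fold and 1.98-fold lower (limma adjusted p = 0.00138 and 4.86e-04). Atp6v1a, the catalytic A subunit, had 136 ± 30.6 FPKM and 86.3 ± 14.3 in wild type and 155 ± 31.8 and 90.7 ± 5.64 in FOXO3-/- (SD, n = 4), differences of -0.64 and -0.74 (limma adjusted p = 0.01 and 0.00303). Atp6v1c1, a subunit of the stalk that holds V1 to V0, fell by 0.63 and 0.75 on the log2 scale. Atp6v1h, which regulates the coupling of the sectors, fell in wild type, from 10.2, 9.74, 15.4 and 10.2 FPKM to 6.60, 7.68, 7.01 and 7.71 (limma adjusted p = 0.0129), and did not pass in FOXO3-/-, with 15.4, 14, 15.5 and 8.89 FPKM for vehicle and 9.54, 10.3, 10.4 and 9.02 for dexamethasone.

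The other pump genes went differently. Atp6v0d1, the d subunit that links the V0 ring to the central stalk, was at 140.3 ± 1.71 FPKM with vehicle and 152 ± 9.57 with dexamethasone in wild type and at 172 ± 20.2 and 149 ± 8.19 in FOXO3-/-, and passed in neither, although in wild type its dexamethasone libraries all lay above its vehicle libraries. Atp6ap1, an accessory subunit needed for assembly, passed in FOXO3-/- alone, at 197 ± 26.2 and 161 ± 8.35 FPKM (difference -0.28, limma adjusted p = 0.03). That call ended without FOXO3-/- vehicle library 1, 2 or 3 or FOXO3-/- dexamethasone library 3 or 4, with an adjusted p of up to 0.0998, and quantile normalization turned the difference to 0.01 (adjusted p = 0.936). Atp6v0c did not pass, while its pseudogene copy fell, with 809.5 ± 141 and 474.8 ± 56.2 FPKM in wild type and 830.7 ± 155 and 446 ± 41.1 in FOXO3-/- (limma adjusted p = 0.00141 and 0.000318). The 8 pump genes summed to means of 859 FPKM with vehicle and 579.7 with dexamethasone in wild type, and 1032 and 603.9 in FOXO3-/-. The pump share of the summed FPKM was 0.249% ± 0.0417 with vehicle and 0.184% ± 0.00764 with dexamethasone in wild type, and 0.289% ± 0.0415 and 0.192% ± 0.00851 in FOXO3-/- (SD, n = 4). That share is as uncertain as the Atp6v0c level: with the pseudogene copy added it was 0.484% ± 0.0388 and 0.335% ± 0.0184 in wild type and 0.522% ± 0.0737 and 0.333% ± 0.0169 in FOXO3-/-.

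Osteoclasts, which derive from the same lineage and carry abundant V-ATPase, share some of these genes, and some of their markers moved too. The 8 osteoclast markers summed to 180.3 to 269.2 FPKM in wild-type vehicle libraries and 103 to 150.2 with dexamethasone. In FOXO3-/- they summed to 82.8 to 218.2 and 89.2 to 122.5, which overlap. 5 of the 8 passed the filter, namely Acp5, Atp6v0d2, Ctsk, Dcstamp and Mmp9. Of those 3 fell in wild type, and 3 fell and 1, Acp5, rose in FOXO3-/-. These are 60% and 80% called, beside 30.1% and 39.1% of all genes tested. Atp6v0d2, itself a V-ATPase gene, fell in wild type, by -1.29 to -0.79 on the log2 scale when each library was left out. Ctsk fell in FOXO3-/-, by -1.16 to -0.97. The other 3 on the list, Calcr, Ocstamp and Oscar, were at or near 0, with no library above 0.0654 FPKM. The part of such cells in the V-ATPase result was not tested.

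**Figure D4:**
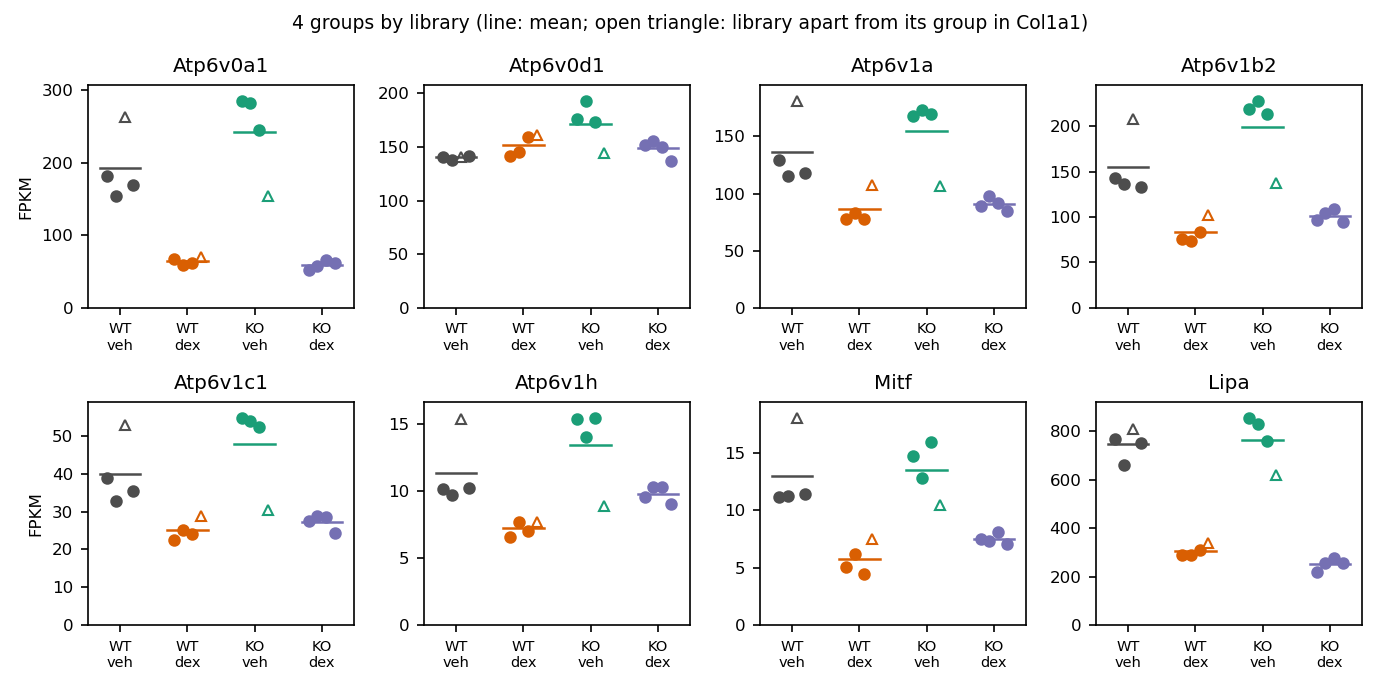
Levels of 6 V-ATPase genes, Mitf and Lipa in each library, in FPKM from 0, by group (4 libraries each, line at the mean; open triangles mark the 3 libraries apart in Col1a1). Atp6v0a1 lies between 51.8 and 69.3 FPKM in the 8 dexamethasone libraries and between 154 and 285 in the 8 vehicle libraries, while Atp6v0d1 lies between 137 and 193 over all 16.

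The hydrolases split. Of 18, 7 fell in wild type (median over the class -0.25), and 6 fell and 1 rose in FOXO3-/- (median -0.09). That is 38.9% called in each genotype, beside 30.1% and 39.1% of all genes tested. In FOXO3-/- the count is thus near the share over all genes. Lipa, the lysosomal acid lipase that frees cholesterol and fatty acids from lipoprotein esters (chr19:34492318-34527474, minus strand), had the smallest p of all members. It was at 767, 663, 811 and 752 FPKM in wild-type vehicle libraries and 289, 289.5, 310.1 and 338 with dexamethasone, and in FOXO3-/- at 854, 830.4, 759.8 and 619.9 with vehicle and 218, 257, 277 and 255 with dexamethasone. The lowest vehicle library lay far above the highest dexamethasone library in both genotypes. Dexamethasone lowered its mean 2.44-fold in wild type (-1.28 ± 0.11 on the log2 scale, limma adjusted p = 6.92e-07) and 3.05-fold in FOXO3-/- (-1.60 ± 0.11, limma adjusted p = 6.09e-08).

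Ctsc, dipeptidyl peptidase I, which activates granule serine proteases (chr7:88278085-88310888, plus strand), was at 37.6, 41, 37.8 and 50.7 FPKM in wild-type vehicle libraries and 17.3, 19.3, 17.5 and 19.7 with dexamethasone. In FOXO3-/- it was at 46.2, 54.3, 52.8 and 82.6 with vehicle and 31.1, 38.1, 26 and 27.5 with dexamethasone. The groups did not overlap in either genotype, and here FOXO3-/- vehicle library 4 was the highest of its group where it was the lowest for most members. The means were 2.26-fold and 1.92-fold lower (differences of -1.13 ± 0.16 and -0.90 ± 0.16, limma adjusted p = 9.71e-05 and 4.49e-04).

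Smaller falls in both genotypes came from Ctsz, a carboxypeptidase, with 953 ± 96 and 643 ± 88.7 FPKM in wild type and 1123 ± 261 and 709 ± 35.7 in FOXO3-/- (SD, n = 4). Tpp1, the tripeptidyl peptidase lost in a childhood ceroid lipofuscinosis, fell by 0.35 and 0.31 on the log2 scale. The FOXO3-/- call for Tpp1 ended under quantile normalization (limma adjusted p = 0.124). Gla, the α-galactosidase A of Fabry disease, fell by 0.55 and 0.65, and Naglu, which removes N-acetylglucosamine from heparan sulfate, by 0.33 and 0.42. In wild type the Gla call ended without vehicle library 3 or dexamethasone library 1 or 2 (limma adjusted p of up to 0.0665), and the Naglu call without vehicle library 1 or 4 or dexamethasone library 2 (up to 0.0668). Both were retained in FOXO3-/- without each of the 16 libraries in turn.

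Among the cathepsins, Ctss and Ctsh passed in 1 genotype each. Ctss, the protease that trims the invariant chain of MHC class II, was at 2117, 1926, 2966 and 2539 FPKM in wild-type vehicle libraries and 1201, 1370.2, 1205 and 2027 with dexamethasone, a difference of -0.73 ± 0.19 (limma adjusted p = 0.00978). In FOXO3-/- it was at 2963, 2742, 2864 and 1822 with vehicle and 2895, 2399, 2639 and 2369 with dexamethasone, a difference of 0.01. The wild-type groups overlapped only through dexamethasone library 4, and the wild-type call ended where no filter on low values was applied (limma adjusted p = 0.0733). Ctsh, an aminopeptidase, was at 38.4, 34.9, 30.1 and 46.8 FPKM with vehicle and 40.5, 38.4, 45.7 and 51.2 with dexamethasone in wild type. In FOXO3-/- it was at 26.8, 34.2, 18.6 and 29.8 with vehicle and 39.5, 55.6, 55 and 52.5 with dexamethasone, and it rose there by 0.88 ± 0.18 on the log2 scale (limma adjusted p = 0.00112). All 4 FOXO3-/- dexamethasone libraries were above all 4 FOXO3-/- vehicle libraries.

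The other 10 hydrolases passed in neither genotype, among them the most abundant. Ctsb had 3653 ± 241 and 3672 ± 466 FPKM in wild type and 3609 ± 594 and 3665 ± 126 in FOXO3-/-, so its means differed by less than the spread between libraries. Ctsd had 4680.1 ± 314 and 3831 ± 367 in wild type and 4802 ± 1259 and 3845 ± 359 in FOXO3-/-. Without the 3 libraries apart in Col1a1, Ctsd fell in both, by 0.34 and 0.48 on the log2 scale (limma adjusted p = 0.031 and 0.0019). Hexa, the α-chain of β-hexosaminidase, Gaa, the glycogen-degrading α-glucosidase, Man2b1, an α-mannosidase, and the protective protein Ctsa were at means of 965, 53.4, 221 and 343 FPKM in wild-type vehicle libraries and 881, 59.2, 221 and 337 with dexamethasone. Ctsa overlaps Pltp on the opposite strand, which was at 265.8 to 662.3 FPKM, and the sources used here do not state whether counting used strand, so its level is uncertain. The sialidase Neu1 was at 37 and 32.2 FPKM in wild type, β-galactosidase Glb1 at 48.9 and 51.9, β-glucuronidase Gusb at 189 and 212, and Ctsl at 318 and 215. Ctsl did not pass although its wild-type groups did not overlap.

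Of the 3 cofactors 1 passed in each genotype (33.3%). Of the 5 membrane proteins 2 passed in wild type and 1 in FOXO3-/- (40% and 20%). These shares stand beside 30.1% and 39.1% of all genes tested in wild type and FOXO3-/-. Psap was at 9163 ± 1062 and 9688 ± 697 FPKM in wild type and 8155 ± 1397 and 8537 ± 339 in FOXO3-/- (SD, n = 4), and Grn, the precursor of the granulins, at 830.4 ± 46.6 and 852 ± 141 and at 1073 ± 88.1 and 1165 ± 45.8. Npc2, which hands cholesterol to NPC1 in the lumen, fell from 259.9, 255, 258 and 275 FPKM to 173, 176, 198 and 220.1 in wild type, with no overlap (-0.45 ± 0.10, limma adjusted p = 0.00346). In FOXO3-/- the Npc2 difference was -0.29 (limma adjusted p = 0.035), a call that ended without FOXO3-/- vehicle library 1, 2 or 3 or any single FOXO3-/- dexamethasone library (up to 0.119). Npc1, the membrane partner of Npc2 in cholesterol export, moved the other way in wild type, from 24.8 ± 1.31 to 30.5 ± 4.64 FPKM, the only member that rose there (difference 0.28, limma adjusted p = 0.0401). This call ended without the 3 libraries apart in Col1a1 and without any single one of 7 libraries, namely wild-type vehicle 1, 2 and 3, wild-type dexamethasone 1 and 4 and FOXO3-/- dexamethasone 1 and 2 (up to 0.103).

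Cd63, a tetraspanin of late endosomes, had 297 ± 42.9 and 219 ± 22.4 FPKM in wild type and 335 ± 63 and 207 ± 10.8 in FOXO3-/-. It fell by 0.43 and 0.67 on the log2 scale (limma adjusted p = 0.0245 and 0.00114), and the wild-type call ended without vehicle library 3 or 4 or dexamethasone library 2 (up to 0.0745). The structural glycoproteins Lamp1 and Lamp2 and the calcium channel Mcoln1, a TFEB target, did not pass in either genotype. Lamp1, whose promoter window held 4 copies of CACGTG, lay between 992 and 1184 FPKM over all 16 libraries. Mcoln1, with 2 copies, lay between 9.59 and 14.6 FPKM.

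The falls were set beside the E-box counts. Of the 11 with CACGTG in the window, 3 fell in each genotype (Atp6v1a, Gla and Naglu), with medians of -0.03 in wild type and -0.08 in FOXO3-/-. Of the 20 without it, 11 fell in each genotype, with medians of -0.32 and -0.28. Of all genes tested, 18.2% fell in wild type and 24.1% in FOXO3-/-. Members without a window are in neither count, among them Atp6v1b2 and Atp6v1c1, which fell in both genotypes, and Atp6v1h, which fell in wild type. The difference between these counts was not tested.

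The response to dexamethasone was not shown to differ between the genotypes for any member. In the interaction of genotype and dexamethasone 0 of 37 genes passed by limma, where 15 genes or 0.129% of all genes tested passed and 1359 had an unadjusted p under 0.05. Ctss and Ctsh had interaction values of 0.74 ± 0.27 and 0.65 ± 0.25 on the log2 scale (limma adjusted p = 0.3 and 0.311), Atp6v0a1 -0.43 (adjusted p = 0.544), Atp6v0d1 -0.31 (adjusted p = 0.291) and Lipa -0.31 (adjusted p = 0.44). Without the 3 libraries apart in Col1a1, 4 members passed, where 6.26% of all genes tested did. The dexamethasone difference of Ctss was then higher in FOXO3-/- than in wild type (interaction 0.64, limma adjusted p = 0.0248). Those of Atp6v0a1 (-0.76, limma adjusted p = 0.00624), Atp6v0d1 (-0.36, adjusted p = 0.0344) and Atp6v1c1 (-0.39, adjusted p = 0.0441) were lower. With the stromal score as covariate none of the 37 passed, where 1.04% of all genes tested did.

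Loss of FOXO3 was read in vehicle and under dexamethasone separately, and these comparisons share their libraries with those above. With vehicle, 1 of 37 genes passed and was higher, where 4.68% of all genes tested did, 3.37% higher and 1.3% lower. The sign was positive in 31 of 37, with a median of 0.16 beside 0.04 over all genes tested. Grn was at 823, 772, 885 and 842 FPKM in wild type and 1094, 1186, 1030.0 and 983 in FOXO3-/-, with every FOXO3-/- library above every wild-type library. Its mean was 1.29-fold higher in FOXO3-/- (0.37 ± 0.10, limma adjusted p = 0.0489), and this call close to the threshold ended when any library was left out other than wild-type vehicle 3, wild-type dexamethasone 2 or 4 and FOXO3-/- vehicle 4 (up to 0.153). Groups did not overlap in 4 members (10.6% of all genes tested): Tfe3, Atp6v0d1 and Grn were higher in FOXO3-/-, and Atp6v0c was lower.

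The vehicle comparison depended on which libraries were in it. With the 3 libraries apart in Col1a1 left out, the genotypes did not overlap in Col1a1, and genotype and stromal content cannot be told apart. Without the 3 libraries apart in Col1a1, 22 members were higher and 1 lower in FOXO3-/-, where 34.1% of all genes tested passed, and the median over the 37 genes was 0.26. The 22 included Tfeb, Tfe3 and Mitf and 7 of 8 V-ATPase genes, such as Atp6v0a1 (0.68, limma adjusted p = 1.46e-04) and Atp6v1b2 (0.67, adjusted p = 1.40e-05), and Ctsh was the member that was lower. Leaving out FOXO3-/- vehicle library 4 alone gave 7 calls, wild-type vehicle library 3 alone 5 and wild-type dexamethasone library 4 alone 3. With the stromal score as covariate, in turn, 1 member passed and it was Atp6v0c, lower in FOXO3-/- (3.17% of all genes tested passed).

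Under dexamethasone 9 of 37 members were higher in FOXO3-/- and none was lower by limma, where 26.7% of all genes tested passed, 14.3% higher and 12.4% lower. At 24.3% called in either direction, the members are near the share over all genes tested. The median was 0.12 beside 0.03 over all genes tested, and 10 members did not overlap between genotypes, again near the share over all genes tested (26.4%). The 9 were 6 hydrolases (Ctsc, Ctsl, Ctss, Glb1, Gusb and Tpp1), both Npc2 and Grn, and Lamp2; none of the 8 V-ATPase members passed, nor Tfeb, Tfe3 or Mitf. Of the 10 macrophage markers 5 were higher in FOXO3-/- in the same comparison and none lower, and their part in the result was not tested. Stromal markers moved as well, 6 of 8 tested being lower in FOXO3-/-, with summed levels of 69 to 1127 FPKM in wild type and 7.16 to 99 in FOXO3-/-.

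Ctss had the largest level among these, with 1201, 1370.2, 1205 and 2027 FPKM in wild type and 2895, 2399, 2639 and 2369 in FOXO3-/-, 1.77-fold higher in the mean (0.86 ± 0.19, limma adjusted p = 0.00688). Wild-type dexamethasone library 4, low in Col1a1, was the nearest to the FOXO3-/- libraries, and the groups did not overlap. Grn was at 810.0, 724, 822 and 1053 FPKM in wild type and 1207, 1155, 1195 and 1106 in FOXO3-/-, 1.37-fold higher in FOXO3-/- (0.46 ± 0.10, limma adjusted p = 0.0055), again with no overlap. Glb1 was at 51.6, 43.8, 51 and 61 FPKM in wild type and 69.8, 72.7, 74.3 and 74.8 in FOXO3-/- (difference 0.49, limma adjusted p = 0.0119). These 3 calls were kept without each of the 16 libraries in turn, and each ended with the stromal score as covariate, where the differences were 0.40 ± 0.14, 0.29 ± 0.10 and 0.27 ± 0.12 (limma adjusted p = 0.0982, 0.0988 and 0.21). Without the 3 libraries apart in Col1a1 they were 1.03, 0.57 and 0.57 (limma adjusted p = 5.44e-06, 3.16e-05 and 1.19e-04). Genotype and stromal content cannot be told apart in that setting.

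Ctsc kept its call under every setting tried. It was at 17.3, 19.3, 17.5 and 19.7 FPKM in wild type and 31.1, 38.1, 26 and 27.5 in FOXO3-/-, 1.66-fold higher and without overlap (0.69 ± 0.16, limma adjusted p = 0.00769). The Ctsc difference was 0.72 without the 3 libraries (limma adjusted p = 5.31e-04), and with the stromal score as covariate it was 0.81 ± 0.19 (limma adjusted p = 0.0185). The fit with the covariate called 5 members in all, where 8.42% of all genes tested passed: Ctsc was higher and Lipa, Mcoln1, Atp6v0c and Atp6v1a were lower.

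The remaining 5 calls under dexamethasone each ended when single libraries were left out. Ctsl, a major endopeptidase, was at 205, 191, 228 and 238 FPKM in wild type and 406, 412, 656 and 236 in FOXO3-/-, where library 4 lay among the wild-type values, and its call (limma adjusted p = 0.0223) ended without wild-type dexamethasone library 1 or 2 or FOXO3-/- dexamethasone library 1, 2 or 3 (up to 0.0619). Gusb (adjusted p = 0.0496) ended without any single library other than wild-type vehicle 3, wild-type dexamethasone 4 and FOXO3-/- vehicle 2 and 4 (up to 0.128). Lamp2 (adjusted p = 0.0482) ended without wild-type vehicle 2 or 4, wild-type dexamethasone 1, 2 or 3, FOXO3-/- vehicle 1 or 2, or any FOXO3-/- dexamethasone library (up to 0.134). Npc2 (adjusted p = 0.0298) and Tpp1 (adjusted p = 0.0384) both ended without wild-type dexamethasone 1, 2 or 3 or FOXO3-/- dexamethasone 1, 2 or 3, and Tpp1 also without FOXO3-/- dexamethasone 4 (up to 0.098 and 0.113). Without all 3 libraries apart in Col1a1, 18 members were higher in FOXO3-/- and Lipa was lower (-0.24, limma adjusted p = 0.0351), where 44.7% of all genes tested passed.

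**Figure D5:**
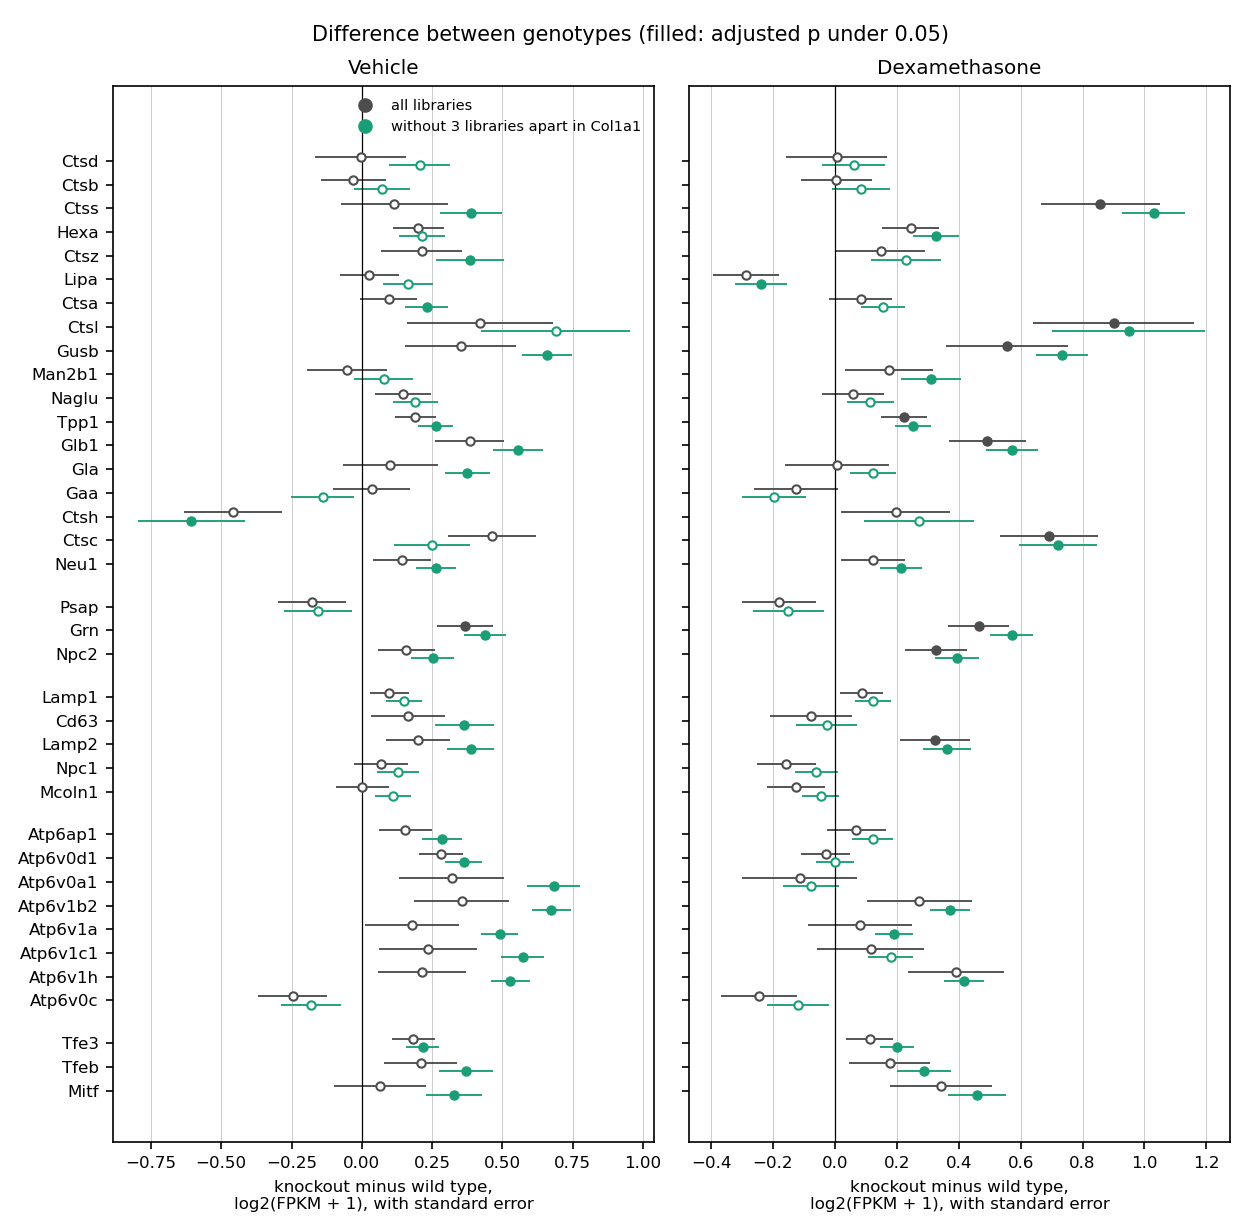
Difference between FOXO3-/- and wild type for each gene on the log2(FPKM + 1) scale, with its standard error, in vehicle (left) and under dexamethasone (right), from all 16 libraries and without the 3 apart in Col1a1. With all libraries Grn alone has an adjusted p under 0.05 in vehicle by limma and 9 genes have one under dexamethasone; without the 3 libraries 23 and 19 do.

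Other genes of the lysosome were taken from lists of 112 genes in 6 groups, 103 of which passed the filter. These lists too were chosen with earlier results of these data known. Dexamethasone raised 16 and lowered 32 of the 103 in wild type and raised 18 and lowered 41 in FOXO3-/-, with medians of -0.11 and -0.14. Those are 46.6% and 57.3% of the 103, beside 30.1% and 39.1% of all genes tested. Of 15 further V-ATPase subunits and assembly factors, 8 fell in wild type and none rose, and 9 fell and 1 rose in FOXO3-/- (53.3% and 66.7% called). Tcirg1, the a3 subunit that is the paralog of Atp6v0a1 in lysosomes and osteoclasts, fell: wild type had 255 ± 12.6 FPKM with vehicle and 143 ± 20.8 with dexamethasone, FOXO3-/- 243 ± 52.7 and 124 ± 10.2 (SD, n = 4; differences -0.84 and -0.94, limma adjusted p = 4.03e-04 and 1.08e-04). The a2 paralog, Atp6v0a2, passed in neither genotype, at means of 9.82 and 9.94 FPKM in wild type and 10.1 and 8.89 in FOXO3-/-, and the epithelial forms Atp6v0a4, Atp6v1b1 and Atp6v1c2 were at or near 0. Atp6v1d, of the central stalk, fell by 0.47 and 0.39.

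Further lumenal proteins went both ways: 6 rose and 10 fell of 31 in wild type, and 7 rose and 11 fell in FOXO3-/-. Those are 51.6% and 58.1% called, beside 30.1% and 39.1% of all genes tested. The galactosylceramidase Galc rose, by 0.67 in wild type and 0.77 in FOXO3-/-. Acp5, the tartrate-resistant phosphatase of osteoclasts, was at 24.7 FPKM with vehicle and 29.9 with dexamethasone in wild type and at 5.42 and 19.5 in FOXO3-/-. It was lower in FOXO3-/- vehicle libraries (-2.03, limma adjusted p = 4.49e-06; -1.92 without the 3 libraries apart in Col1a1) and rose there with dexamethasone (1.71, adjusted p = 2.58e-06).

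Of 22 further membrane proteins, 6 rose and 5 fell in wild type and 5 rose and 5 fell in FOXO3-/- (50% and 45.5% called). These shares stand beside 30.1% and 39.1% of all genes tested, and the one in FOXO3-/- is near it. The histidine and peptide transporter Slc15a3 fell, with 38.8 ± 5.86 and 10.3 ± 1.74 FPKM in wild type and 37.6 ± 3.02 and 13.7 ± 1.49 in FOXO3-/- (-1.82 and -1.40, limma adjusted p = 1.02e-07 and 7.08e-07). Cd68, a lysosomal glycoprotein that also stands in the macrophage marker list, fell by 0.60 and 0.57. Hgsnat, the acetyltransferase that acts beside Naglu on heparan sulfate, rose by 0.88 and 1.37, and the amino acid exporter Slc36a1 by 0.72 and 0.96.

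A list on the control of TFEB held mTORC1, the Rag GTPases and their regulators, which keep TFEB in the cytoplasm, the calcineurin genes Ppp3ca, Ppp3cb and Ppp3r1, whose phosphatase releases it, and the transcription factors Tfec and Zkscan3. Of its 23 tested genes 3 rose and 5 fell in wild type and 4 rose and 10 fell in FOXO3-/- (34.8% and 60.9% called, the former near the share over all genes tested). Zkscan3 rose by 0.29 and 0.41 and Ppp3ca fell by 0.25 and 0.20. Lamtor1, which anchors the Rag complex to the lysosome, fell by 0.44 and 0.59. Flcn, which activates RagC, rose by 0.50 and 0.27, and the mTORC1 subunit Rptor by 0.41 and 0.75. Among 9 genes of hydrolase sorting, the cation-dependent mannose 6-phosphate receptor M6pr fell by 0.46 and 0.41, while the alternative receptor Sort1 rose, with 12.4 and 26.5 FPKM in wild type and 17.8 and 48.2 in FOXO3-/- (limma adjusted p = 0.0077 and 4.90e-04). Of the 3 cathepsin inhibitors that passed the filter 2 fell in both genotypes, Cstb by 1.02 and 1.05. Of all genes tested, 18.2% fell in wild type and 24.1% in FOXO3-/-.

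By genotype, 4 of the 103 listed genes were higher and 1 lower in FOXO3-/- with vehicle, and 25 were higher and 5 lower under dexamethasone. At 4.85% and 29.1% called, both are near the 4.68% and 26.7% over all genes tested. Without the 3 libraries apart in Col1a1, 49 were higher and 5 lower with vehicle (52.4%, beside 34.1% of all genes tested) and 47 higher and 8 lower under dexamethasone (53.4% beside 44.7%). With the stromal score as covariate 2 were higher and 2 lower with vehicle (3.88% beside 3.17%), and 6 higher and 6 lower under dexamethasone (11.7% beside 8.42%). Acp2, the lysosomal acid phosphatase, had 32.6 ± 4.33 FPKM in wild-type and 50.8 ± 2.09 in FOXO3-/- dexamethasone libraries (difference 0.63, limma adjusted p = 0.00106). The acid nuclease Dnase2a was higher in FOXO3-/- by 0.45 under dexamethasone (limma adjusted p = 0.00147). Tsc1, which restrains mTORC1, was lower there by 0.43 (limma adjusted p = 7.49e-04). These 3 calls held under every setting tried. Aga, Cln3, Gga1, Gga3 and the secreted cathepsin inhibitor Cst3 passed in no comparison with dexamethasone, at means of 11.8, 21.5, 45, 10.5 and 1273 FPKM in wild-type vehicle libraries.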

How the data were processed

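RNA-seq values of 16 macrophage libraries were analysed, 4 in each of 4 groups set by genotype and agent in the labels. The deposited tables give FPKM per Ensembl gene, computed by the authors. The submitters' processing notes name Bowtie2 2.2.3, TopHat2 2.0.12, HTSeq 0.6.1, DESeq2 without a version and the build GRCm38/mm10. The sources used here give neither the strand setting nor the annotation version. GENCODE M21 named 54495 of the 54532 identifiers. Values under 200 reads were whole multiples of 1 read, within 0.05, for 97.8% to 98.1% of genes. The step of 1 read gave FOXO3-/- vehicle library 1 a denominator of 17229419, below its 20584578 reads on genes. The FPKM were thus not scaled by the reads on genes.

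Genes that reached 1 FPKM in 4 or more libraries were tested as log2(FPKM + 1) with limma 3.58.1 (R 4.3.3; trend, 4 group means, 5 contrasts, two-sided) and Benjamini-Hochberg adjustment over all 11654. Near-copies of members were sought with blastn 2.17.0 (at least 90% identity over 200 bases). All 37 members are covered; other genes were named as the first 3 in each list's alphabet, the smallest adjusted p and V-ATPase paralogs; some of these are not reported here. Members and lists were chosen with earlier results of these data known. Alternatives were other pseudocounts, filters and scalings, a replicate block, a stromal covariate and left-out libraries. No column of values was left unused.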

Additional observations from a re-analysis of the deposited data

Results flagged for a closer look

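In 13 of 148 groups of 4 libraries (37 genes in 4 groups), the highest or lowest value lay farther from the others than Dixon's criterion allows at the 95% level, and chance alone gives about 1 in 20. The 37 genes were measured in the same libraries, so these groups are not independent of each other. Of the 13, 3 each came from wild-type vehicle library 3, wild-type dexamethasone library 4 and FOXO3-/- vehicle library 4, the libraries apart in Col1a1.

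Wild-type vehicle library 3 was high in Atp6v1b2 at 208 FPKM (others 133.4 to 143.3), in Atp6v1h at 15.4 (9.74 to 10.2) and in Mitf at 18.01 (11.2 to 11.4). Wild-type dexamethasone library 4 was high in Gusb at 299.2 FPKM (171 to 190), in Man2b1 at 290.1 (197.3 to 199.5) and in Tfe3 at 20.23 (15.5 to 15.9). FOXO3-/- vehicle library 4 was low in Atp6v1a at 106.9 FPKM (168.3 to 173.6), in Atp6v1b2 at 137 (213.2 to 227.7) and in Atp6v1c1 at 30.36 (52.3 to 54.7). The 4 others were Tpp1 in wild-type vehicle library 1 at 89.65 FPKM (86.1 to 86.6), Psap in FOXO3-/- dexamethasone library 1 at 8033 (8640 to 8739), Cd63 in FOXO3-/- dexamethasone library 3 at 223.5 (201 to 202.9) and Npc2 in FOXO3-/- dexamethasone library 4 at 228.8 (241.6 to 244.2).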

How the results depend on the processing

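The dexamethasone counts moved by less than 1.5 times under every alternative run: 15 to 19 members (2887 to 3643 genes) in wild type and 15 to 21 members (3743 to 4828 genes) in FOXO3-/- when each library was left out. By limma 12 of the 18 wild-type calls and 14 of the 17 FOXO3-/- calls were kept under every setting. Quantile normalization turned 1 difference, Atp6ap1 with dexamethasone in FOXO3-/-, to 0.0083 on the log2 scale; the cause was not tested.

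The genotype comparisons moved more. Leaving out each library gave 0 to 7 members and 277 to 1624 genes in vehicle, 4 to 12 members and 1490 to 4065 genes under dexamethasone, and 2 to 320 genes for the interaction. In vehicle, 0 members passed with a pseudocount of 0.1, no filter, median-ratio scaling, quantile normalization, the replicate block or only the groups compared (then 244 genes). Under dexamethasone, 4 members passed with no filter, and 5 with the stromal covariate (981 genes). Interaction genes numbered 37 with a pseudocount of 5, 6 with no filter and 121 with the stromal covariate. Without the 3 libraries apart in Col1a1, 23 members and 3917 genes passed in vehicle, 19 and 5130 under dexamethasone, and 4 and 718 for the interaction. No fit of the interaction to only the groups compared was run, since it uses all 4. The cause of these moves was not tested, except that leaving out libraries and the no-filter setting change what is tested.

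Same-numbered libraries of different groups deviated from their group means with correlations of -0.76 to 0.73. The libraries apart in Col1a1 are among them, so these values cannot decide whether the numbers pair the libraries. With the replicate block 17 and 15 members passed with dexamethasone in wild type and FOXO3-/-, 0 by genotype in vehicle, 5 by genotype under dexamethasone, and 1 gene in the interaction. Quantile normalization moved the share of higher genes among those called from 38.4% to 51.1% with dexamethasone in FOXO3-/- and from 72.1% to 61.6% by genotype in vehicle. Depth limits the genes with few reads most. In its library with the fewest reads, Atp6v0c had 323, Mitf 509, Tfeb 989 and Atp6v1h 1058. Among the hydrolases that number ran from 1452 in Ctsh to 343964 in Ctsb.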
